A study of Mus musculus with 16 samples.

Results

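Neuronal immediate early genes are genes that neurons transcribe within minutes of synaptic activity, before any new protein has to be made. The 9 genes described here were taken by symbol from the deposited count tables, which list 43472 gene symbols: Fos, Fosb, Junb, Egr1, Arc, Npas4, Nr4a1, Dusp1 and Ier2. All 9 were found. They were followed through 16 libraries of mouse brain in 4 groups of 4: Prepl knockouts, the wild types kept as their controls (Prepl WT), mice with a deleted Prader-Willi imprinting centre (PWS-IC deleted), and the wild types kept as controls for those (PWS-IC WT). Prepl encodes a serine hydrolase whose loss causes congenital myasthenic syndrome 22 in people, and the imprinting centre keeps the Prader-Willi genes on the father's chromosome active; the study asked what the brains of both models have in common. The labels give tissue and genotype, and no strain, age, treatment or brain region; whether a library is 1 animal is not stated, and p-values therefore rest on library-to-library spread, which may be technical. Total RNA went into QuantSeq libraries, which read the poly(A) end of a transcript, so that a count does not grow with transcript length.

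In a neuron, calcium entering through NMDA-type glutamate receptors and voltage-gated channels activates calmodulin-dependent kinases and the MAP kinase cascade. These act on transcription factors that already sit on the DNA, among them CREB, SRF with its ELK partners, and MEF2, and the first genes switched on are the immediate early genes. Most of their products are transcription factors, which act in turn on a slower set of genes for secreted factors and synaptic proteins; Arc acts at the synapse directly, and Dusp1 shuts the kinases off again. Their transcripts are short-lived, and the genes also respond to growth factors and stress in other cells.

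The site at which CREB binds has the letters TGACGTCA, or in short form TGACG. The RefSeq promoter table (GRCm38.p6) held 6 of the 9 genes, and the 250 bases before the start of each were searched on both strands. All 6, Fos, Fosb, Junb, Npas4, Nr4a1 and Dusp1, had at least 1 TGACG, against 17.8% of 32851 promoters of the same length. The 4 below are shown because each held more than 1 match (Fosb and Junb had 1 each), with the matching letters in capitals (CGTCA is TGACG read on the other strand).
Fos: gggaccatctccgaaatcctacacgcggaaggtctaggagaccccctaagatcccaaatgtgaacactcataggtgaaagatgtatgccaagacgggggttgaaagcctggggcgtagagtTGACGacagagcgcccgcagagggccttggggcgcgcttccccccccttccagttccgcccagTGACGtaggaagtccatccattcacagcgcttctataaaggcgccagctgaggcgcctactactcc
Npas4: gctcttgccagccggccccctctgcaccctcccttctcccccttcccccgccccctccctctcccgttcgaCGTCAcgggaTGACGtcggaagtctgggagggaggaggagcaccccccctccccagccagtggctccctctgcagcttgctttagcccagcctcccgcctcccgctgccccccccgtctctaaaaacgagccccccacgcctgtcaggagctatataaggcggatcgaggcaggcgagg
Nr4a1: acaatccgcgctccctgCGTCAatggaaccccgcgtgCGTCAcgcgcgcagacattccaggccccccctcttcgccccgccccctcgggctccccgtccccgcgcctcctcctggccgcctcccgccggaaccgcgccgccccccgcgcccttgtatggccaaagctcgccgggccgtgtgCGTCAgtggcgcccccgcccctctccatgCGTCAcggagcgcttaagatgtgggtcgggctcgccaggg
Dusp1: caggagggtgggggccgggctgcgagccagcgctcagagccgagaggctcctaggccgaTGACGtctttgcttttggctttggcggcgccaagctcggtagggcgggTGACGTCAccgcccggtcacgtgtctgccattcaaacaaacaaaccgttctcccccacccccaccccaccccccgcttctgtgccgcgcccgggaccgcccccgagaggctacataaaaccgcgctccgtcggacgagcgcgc

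These windows lie at chr12:85473640-85473889 for Fos and chr15:101266596-101266845 for Nr4a1, both on the plus strand, and at chr19:4989972-4990221 for Npas4 and chr17:26508473-26508722 for Dusp1, both on the minus strand. Fos had TGACG at -129 and -66, counted from the transcript start, and Nr4a1 had it at -233, -213, -69 and -40. The full TGACGTCA was in the Dusp1 window at -143, where it overlaps 2 TGACG matches, and in none of the other 5; 1.55% of all promoters held it. Of the 6 windows, only that of Fos held the exact letters TATAAA on the plus strand, 1 form of the TATA box, at -33, against 7.59% of all promoters. Other forms of the TATA box were not searched, and the Npas4 window shown holds the similar tatataag. The CArG box, the site of SRF, was in none of the 6 windows and in 1.47% of all promoters. Bases further upstream were not searched, and Egr1, Arc and Ier2 had no window. Whether the immediate early genes have a CArG box outside these windows was therefore not tested. A match is a stretch of letters, and nothing was measured at these sites here.

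Each library held 3477624 to 5852716 reads in genes, and the targeted genes followed the labels: Prepl fell by 4.34 on the log2 scale in its knockouts (edgeR quasi-likelihood test, adjusted p = 9.44e-14), and Ndn, silenced by that deletion, fell by 6.94 in the PWS-IC deleted libraries (adjusted p = 8.29e-17). All 11 listed neuronal markers were detected, with a summed level of 6232 to 7122 CPM (counts per 1000000 reads in genes) across the 16 libraries. Sex, read from Xist and Y-linked genes, was unequal in the Prepl comparison: Prepl WT 1 to 3 were female and Prepl WT 4 male, whereas all 4 knockouts were male. In both PWS-IC groups replicates 1 and 2 were male and 3 and 4 female. Prepl WT 1 stood apart from the other wild types of its group: 19.6% of its tabled reads aligned outside genes, against at most 16.3% in the other 3 (and 16.1% to 19.2% in the knockouts), and it had the highest level of the group for 29.6% of the 13722 genes tested. The immediate early genes were thinly covered: all 16 libraries together held 1644 reads of Egr1 and 1641 of Dusp1, 31 of Fosb, and between 143 and 555 of each of the others.

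**Figure D1:**
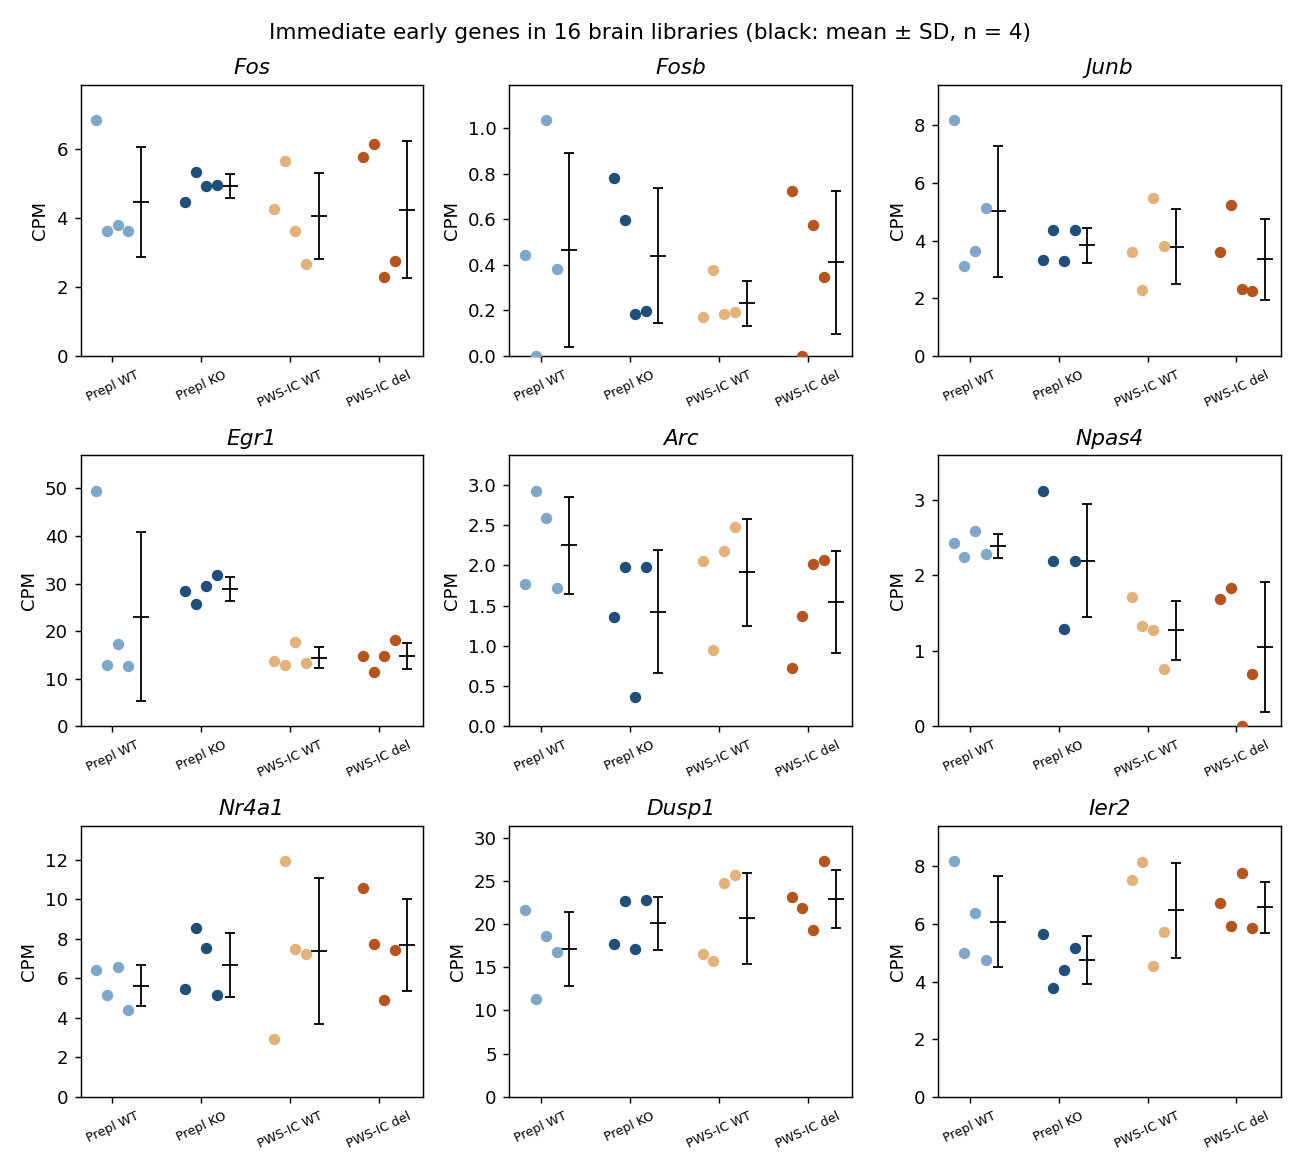
Level of each immediate early gene in every library, in CPM, by group. Points are libraries, ordered by replicate number, and black marks are the mean ± SD (n = 4); each panel has its own axis from 0. Egr1 in Prepl WT 1 reaches 49.5 CPM, above the 4 Prepl knockouts at 25.8 to 31.8 CPM, while the other 11 libraries lie at 11.4 to 18.1 CPM.

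None of the immediate early genes passed the test in either mutant against its own wild types. In the Prepl knockouts 0 of the 8 genes with enough reads were called, against 0.262% of all genes tested, and in the PWS-IC deleted libraries 0 of 7 were called, against 4.51% of all genes tested (edgeR quasi-likelihood test, Benjamini-Hochberg adjusted over all genes). At an unadjusted p under 0.05 the counts were also 0 and 0, against 9.43% and 18.2% of all genes, and DESeq2 and limma voom called 0 in each. The median log2 fold change over the tested members was 0.05 in each comparison, beside 0.00 and -0.01 over all genes. The result for Egr1 in the Prepl knockouts turned on 1 wild-type library: with it the log2 fold change was 0.40 and not called, and without it 1.05 and called.

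Fos, Fosb and Junb encode subunits of AP-1, the dimeric transcription factor formed by a FOS protein and a JUN protein. Fos, on chromosome 12 at 85473890 to 85477273 (GENCODE M21, GRCm38, as for all positions that follow), measured 6.85, 3.62, 3.79 and 3.62 CPM in Prepl WT 1 to 4, and 4.48, 5.36, 4.95 and 4.96 CPM in Prepl knockouts 1 to 4. The knockouts lay within a narrow band, between the high wild type and the 3 low ones. The log2 fold change was 0.20 ± 0.27 (SE), with a 95% interval of -0.35 to 0.76 and an adjusted p of 0.873. Fos measured 4.27, 5.68, 3.64 and 2.67 CPM in the PWS-IC wild types, and 5.77, 6.16, 2.30 and 2.76 CPM in the deleted libraries. The highest and the lowest of these 8 libraries were both deleted ones, so the groups overlapped throughout. The log2 fold change was 0.07 (95% interval -0.67 to 0.81, edgeR adjusted p = 0.951). In both PWS-IC groups replicates 1 and 2, the males, lay above 3 and 4, the females, at 4.27 to 6.16 against 2.30 to 3.64 CPM. In Prepl WT the male, replicate 4, measured 3.62 CPM and the females 3.62 to 6.85 CPM. The part of sex or replicate number in this split was not tested, and the share of all genes so split was not counted.

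Junb, on chromosome 8 at 84974484 to 84978718, overlaps Prdx2 on the opposite strand, which had 49197 reads in all; the strand setting of the authors' counting is not given in the sources used here, so reads of the pair may not be fully separated. Junb measured 8.18, 3.10, 3.62 and 5.14 CPM in the Prepl wild types and 3.31, 4.37, 3.30 and 4.37 CPM in the knockouts. Here too Prepl WT 1 was the highest library, and the knockouts overlapped the rest. The log2 fold change was -0.32 ± 0.30 (95% interval -0.95 to 0.31, adjusted p = 0.794). The PWS-IC wild types measured 3.59, 2.27, 5.46 and 3.81 CPM and the deleted libraries 3.61, 5.24, 2.30 and 2.24 CPM, with overlapping groups and a log2 fold change of -0.17 (95% interval -0.91 to 0.57, adjusted p = 0.860).

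Fosb, on chromosome 7 at 19302696 to 19310051, had 0 to 6 reads per library and fell under the filter on low counts in every comparison. Its levels were 0.44, 0, 1.03 and 0.38 CPM in the Prepl wild types, 0.78, 0.60, 0.18 and 0.20 CPM in the knockouts, 0.17, 0.38, 0.18 and 0.19 CPM in the PWS-IC wild types, and 0.72, 0, 0.58 and 0.35 CPM in the deleted libraries. The 0 reads of Prepl WT 2 and of PWS-IC deleted 2 allow up to 0.517 and 0.684 CPM, the level of 3 reads. Summed over 4 libraries, the Prepl knockouts held 9 reads and their wild types 10, a ratio of 0.931 per read in genes with an exact 95% interval of 0.335 to 2.55. Such intervals cover counting error only, and reads without molecular identifiers are not independent molecules. For the deleted libraries and their wild types the reads were 7 and 5, and the ratio 1.72 (0.470 to 6.87). Both intervals cover lower as well as higher levels, so no difference in Fosb was detectable at this depth.

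Egr1 encodes a zinc finger transcription factor that responds strongly to synaptic activity, and its gene lies on chromosome 18 at 34859823 to 34864984. It measured 49.5, 12.9, 17.2 and 12.6 CPM in Prepl WT 1 to 4, and 28.4, 25.8, 29.5 and 31.8 CPM in Prepl knockouts 1 to 4. Prepl WT 1 was the highest of all 16 libraries and the knockouts followed, with the other 3 wild types well below them. In the PWS-IC wild types Egr1 measured 13.7, 12.9, 17.7 and 13.3 CPM, and in the deleted libraries 14.7, 11.4, 14.7 and 18.1 CPM. These 8 libraries lay at 11.4 to 18.1 CPM, around the 12.6 to 17.2 CPM of Prepl WT 2 to 4.

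**Figure D2:**
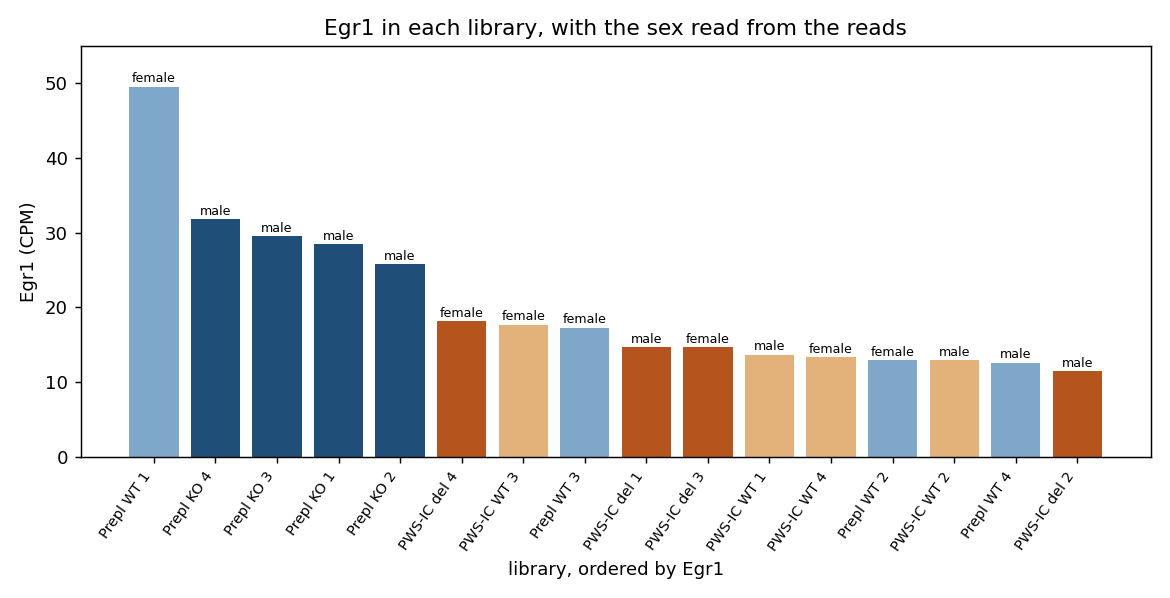
Egr1 level (CPM, axis from 0) in the 16 libraries, ordered from the highest to the lowest, coloured by group and marked with the sex read from Xist and Y-linked genes. The 4 male Prepl knockouts lie at 25.8 to 31.8 CPM, below female Prepl WT 1 at 49.5 CPM and above the other 11 libraries at 11.4 to 18.1 CPM.

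With all 4 wild types, the log2 fold change of Egr1 in the Prepl knockouts was 0.40 ± 0.27 (95% interval -0.16 to 0.95), with group means of 28.9 ± 2.48 and 23.1 ± 17.8 CPM (SD, n = 4) and an edgeR adjusted p of 0.686. Without Prepl WT 1, a comparison singled out after its value was seen, the wild types measured 14.2 ± 2.60 CPM (n = 3). The log2 fold change was then 1.05 ± 0.14 (95% interval 0.76 to 1.35, edgeR adjusted p = 0.00012). Each knockout lay above each of those 3 wild types, and the share of all genes so separated in that fit was not counted. In that fit 0.74% of 13922 genes were called, and Egr1 was the only one of the 8 tested immediate early genes among them. Leaving out any other single library gave log2 fold changes of 0.19 to 0.44, none of them called. With all 8 libraries kept, limma voom gave 0.67 ± 0.24 (adjusted p = 0.359). Of 2 outlier-tolerant fits added after seeing the data, limma voom with a quality weight per library gave 0.86 ± 0.20 (adjusted p = 0.0365), and robust edgeR gave 0.40 ± 0.49 (adjusted p = 0.871).

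Sex moved with the groups in this comparison, because the knockouts were all male. The 5 male libraries of the other 3 groups measured 11.4 to 14.7 CPM of Egr1, all below the lowest knockout. With a sex term the log2 fold change was 1.23 ± 0.44 in the 8 libraries (edgeR adjusted p = 0.999) and 0.76 ± 0.29 in a fit of all 16 libraries (adjusted p = 0.276). Without Prepl WT 1, and with a sex term over the other 15 libraries, it was 1.22 ± 0.18 (adjusted p = 0.0001498). The wild types of the knockouts include only 1 male, at 12.6 CPM, on which the fit of 8 libraries rests. The larger fits take the sex effect partly from the PWS-IC groups. Sex and knockout cannot be fully told apart in this design.

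Egr1 has 3 relatives in the genome, Egr2, Egr3 and Egr4, which bind similar DNA. Egr4 measured 1.75 ± 1.10 CPM in the Prepl wild types and 2.41 ± 0.63 CPM in the knockouts (SD, n = 4), and 0.862 ± 0.451 and 0.503 ± 0.427 CPM in the PWS-IC wild types and deleted libraries. Without Prepl WT 1, which held the highest Egr4 of the wild types at 3.32 CPM, the other 3 averaged 1.23 CPM, and the log2 fold change was 0.98 ± 0.43 (edgeR adjusted p = 0.380). The gene was not called with or without that library. Egr2 had 12 to 32 reads per group, and Egr3 was listed at 0 reads in all 16 libraries. A count of 0 allows 0.513 to 0.863 CPM per library, but only if the poly(A) end of Egr3 lies within the annotation that was counted, which was not tested, so nothing is read from it about expression.

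Prepl WT 1 was the highest of the 4 Prepl wild types for 5 of the 9 immediate early genes, Fos, Junb, Egr1, Dusp1 and Ier2, and the lowest for none. It was also the highest for 15 of 36 other rapid activity-regulated genes, 9 of 18 delayed effectors and 21 of 35 upstream genes, beside 29.6% of all genes. Among the cell markers fixed for the brain, its summed astrocyte level was 1187 CPM against 876 CPM in the lowest wild type of the group. Its summed forebrain level, from 11 of 12 listed genes of cortex, hippocampus and striatum, was 1914 CPM against 1602 CPM, and its blood level 1147 CPM against 661 CPM. By single genes, Prepl WT 1 was the highest for 6 of 8 astrocyte, 4 of 5 blood and 4 of 10 forebrain genes tested. Prepl WT 3 was also the highest for 4 of the 10 forebrain genes. The summed neuronal level of Prepl WT 1, at 6752 CPM, was the lowest of the 4, as was its level of heat shock and stress genes at 697 CPM. The highest neuronal sum of the group was 6924 CPM, and by single genes Prepl WT 1 was the highest for 4 of 11 neuronal genes. The summed markers of cerebellum, oligodendrocytes, microglia and choroid plexus were also highest in this library, and those of endothelium were not. In the knockouts the astrocyte sum was 841 to 986 CPM, the forebrain sum 1433 to 1642 CPM and the blood sum 629 to 834 CPM. No listed marker of these cell types had 0 reads in Prepl WT as a group. Gabra6 of the cerebellum had 0 in the knockouts, and Drd2 of the striatum had 0 in the knockouts and in both PWS-IC groups. Mog of the oligodendrocytes had 0 in both PWS-IC groups. In bulk tissue, more cells of a type and more RNA per cell cannot be told apart, and the part of these shifts in the Egr1 value was not tested.

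Npas4 encodes a transcription factor found almost wholly in neurons and switched on by calcium entry. Its gene lies on chromosome 19 at 4984355 to 4990316, and each library held 0 to 16 of its reads. Npas4 measured 2.43, 2.24, 2.59 and 2.29 CPM in the Prepl wild types and 3.12, 2.18, 1.28 and 2.18 CPM in the knockouts. The wild types were almost level, and the knockouts lay on both sides of them (log2 fold change -0.09, 95% interval -0.80 to 0.62, edgeR adjusted p = 0.963). In the PWS-IC wild types it measured 1.71, 1.33, 1.27 and 0.76 CPM, and in the deleted libraries 1.68, 1.82, 0 and 0.69 CPM. That comparison fell under the filter on low counts, with 28 reads in wild-type and 19 in deleted libraries, a ratio of 0.834 per read in genes (exact 95% interval 0.440 to 1.55). As for Fos, the males of both PWS-IC groups, replicates 1 and 2, lay above the females, at 1.33 to 1.82 against 0 to 1.27 CPM. The margin was thin: male PWS-IC WT 2 and female PWS-IC WT 3 held 7 reads each and differed only by library size. The 0 reads of PWS-IC deleted 3 allow up to 0.863 CPM. In Prepl WT the male measured 2.29 CPM and the females 2.24 to 2.59 CPM. The part of sex in this split was not tested, and the share of all genes so split was not counted.

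Nr4a1 encodes an orphan nuclear receptor, on chromosome 15 at 101254269 to 101274795. It measured 6.41, 5.17, 6.55 and 4.38 CPM in the Prepl wild types and 5.45, 8.53, 7.52 and 5.16 CPM in the knockouts. Knockouts 2 and 3 lay above all wild types, the other 2 among them, and the log2 fold change was 0.28 ± 0.24 (95% interval -0.21 to 0.78, edgeR adjusted p = 0.759). In the PWS-IC wild types it ranged widely, at 2.90, 11.93, 7.46 and 7.23 CPM. The deleted libraries, at 10.59, 7.75, 4.89 and 7.42 CPM, fell inside that range, with a log2 fold change of 0.08 (95% interval -0.60 to 0.75, adjusted p = 0.936).

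Arc encodes a protein that travels to active synapses and takes part in the removal of AMPA receptors, and its gene lies on chromosome 15 at 74669083 to 74672570. It measured 1.77, 2.93, 2.59 and 1.71 CPM in the Prepl wild types and 1.36, 1.98, 0.37 and 1.99 CPM in the knockouts. Knockouts 2 and 4 lay among the wild types and the other 2 below them, and the log2 fold change was -0.65 ± 0.42 (95% interval -1.51 to 0.21, edgeR adjusted p = 0.664). Each library held 2 to 17 reads of Arc. In the PWS-IC wild types Arc measured 2.05, 0.95, 2.18 and 2.47 CPM, and in the deleted libraries 0.72, 1.37, 2.01 and 2.07 CPM, with overlapping groups and a log2 fold change of -0.29 (95% interval -1.19 to 0.62, adjusted p = 0.797).

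Dusp1 encodes a phosphatase that inactivates MAP kinases. Its annotated span, chromosome 17 from 26505590 to 26562128, overlaps Ergic1 on the opposite strand, which had 10277 reads in all. Dusp1 measured 21.7, 11.4, 18.6 and 16.8 CPM in the Prepl wild types and 17.7, 22.6, 17.1 and 22.8 CPM in the knockouts. Knockouts 2 and 4 were just above the highest wild type and the other 2 within the range of the wild types. The log2 fold change was 0.27 ± 0.17 (95% interval -0.08 to 0.62), and the edgeR adjusted p of 0.650 was the smallest of the 8 immediate early genes tested there. The PWS-IC wild types split into replicates 1 and 2, at 16.6 and 15.7 CPM, and replicates 3 and 4, at 24.8 and 25.7 CPM. The former were male and the latter female, whereas the deleted libraries, at 23.1 and 21.9 CPM for the males and 19.3 and 27.3 CPM for the females, showed no such split. The log2 fold change was 0.17 ± 0.17 (95% interval -0.19 to 0.53, adjusted p = 0.672).

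Ier2 encodes a small nuclear protein of the early growth response, and its gene lies on chromosome 8 at 84661331 to 84662852. It measured 8.18, 4.995, 6.38 and 4.76 CPM in the Prepl wild types and 5.65, 3.77, 4.401 and 5.16 CPM in the knockouts. Prepl WT 1 was once more the highest, and the log2 fold change was -0.31 ± 0.25 (95% interval -0.83 to 0.21, edgeR adjusted p = 0.751). In the PWS-IC wild types Ier2 measured 7.52, 8.14, 4.55 and 5.71 CPM, and in the deleted libraries 6.74, 5.93, 7.76 and 5.87 CPM. The deleted libraries lay inside the range of their wild types, with a log2 fold change of 0.01 (95% interval -0.52 to 0.54, adjusted p = 0.990).

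**Figure D3:**
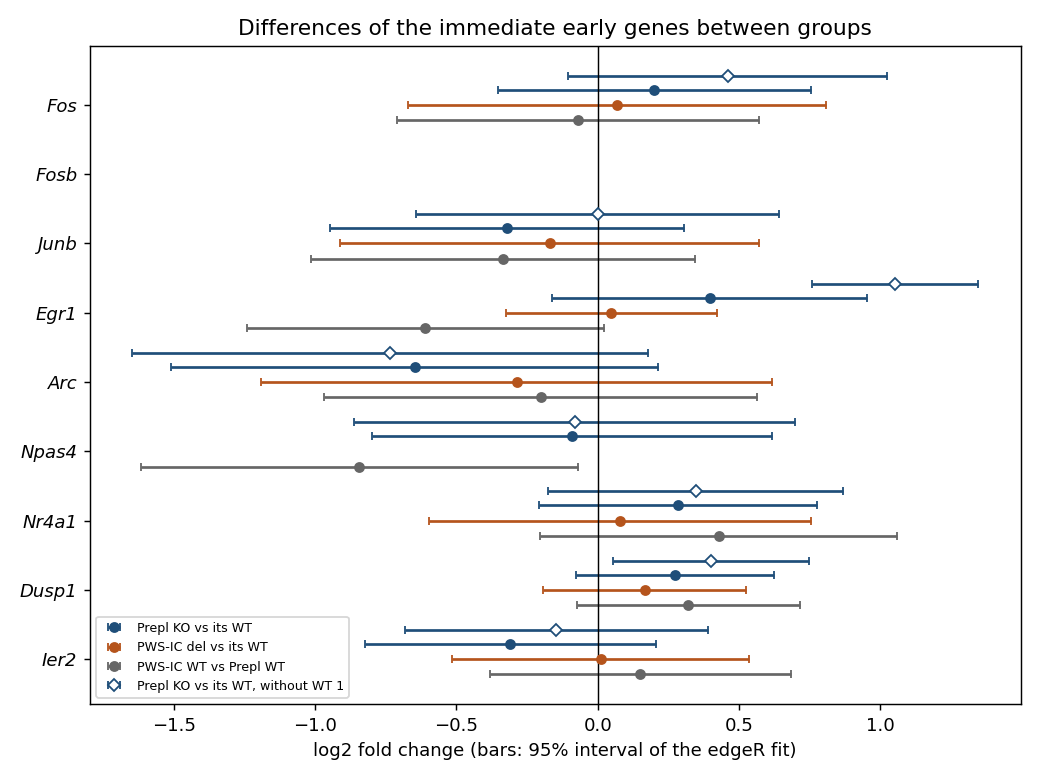
log2 fold change of each immediate early gene with its 95% interval from the edgeR fit, for the Prepl knockouts, the PWS-IC deleted libraries and the 2 wild-type groups (PWS-IC WT over Prepl WT), and for the Prepl knockouts without Prepl WT 1 (open diamonds). Fosb, and Npas4 in the PWS-IC deleted libraries, had too few reads to be fitted; for Egr1 the interval moves from -0.16 to 0.95 with Prepl WT 1 to 0.76 to 1.35 without it.

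Without Prepl WT 1, the other immediate early genes moved less than Egr1 and none was called. Fos then measured 3.62 to 3.79 CPM in 3 wild types and 4.48 to 5.36 CPM in the knockouts. The log2 fold change was 0.46 ± 0.28 (edgeR adjusted p = 0.575), and -0.02 ± 0.34 with a sex term over the other 15 libraries. Between the knockouts and these 3 wild types, 2 of 8 members tested, Fos and Egr1, were higher without overlap. Of 36 other rapid activity-regulated genes, 6 were higher and 2 lower without overlap. The share of all genes so separated was not counted. Dusp1 gave 0.40 ± 0.17 (adjusted p = 0.360 by edgeR) with overlapping groups. Junb stood at -0.00 ± 0.31, in place of -0.32 with that library, and Arc at -0.74 ± 0.45 (adjusted p = 0.579).

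Whether the 2 mutants differed from each other was tested as a contrast of their effects over all 16 libraries. None of 8 immediate early genes was called, against 0.778% of all genes, none had an unadjusted p under 0.05 (11.7% of all genes did), and the smallest edgeR adjusted p was 0.787, for Ier2 (0.32 ± 0.35, PWS-IC minus Prepl effect). DESeq2 and limma voom also called 0. For Egr1 the contrast was -0.33 ± 0.39 (95% interval -1.12 to 0.45, adjusted p = 0.808). Without Prepl WT 1 it was -1.003 ± 0.228 (adjusted p = 0.0233), and 0.909% of all genes were called in that fit.

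More genes were called between the wild-type groups than between either and its mutant: 23.8% of 13756 genes were called between PWS-IC WT and Prepl WT. None of the 8 immediate early genes tested was among them by edgeR, DESeq2 or limma voom, and 1 had an unadjusted p under 0.05, as did 35.9% of all genes. That gene was Npas4, at 1.27 ± 0.39 CPM in the PWS-IC wild types and 2.39 ± 0.16 CPM in the Prepl wild types (SD, n = 4), a log2 fold change of -0.85 ± 0.37 (95% interval -1.62 to -0.07, edgeR adjusted p = 0.106). All 4 PWS-IC wild types lay below all 4 Prepl wild types in Npas4; such a separation, in that direction, held for 14.9% of all genes. The reads behind it were 28 and 51, a ratio of 0.536 with an exact 95% interval of 0.326 to 0.867. That interval covers counting error only. It excluded equal levels, as did those of Egr1 (0.572 to 0.765), Nr4a1 (1.015 to 1.655) and Dusp1 (1.063 to 1.41). The intervals of Fos, Fosb, Junb, Arc and Ier2 covered equal levels.

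Between the wild-type groups Egr1 differed by -0.61 ± 0.31 (edgeR adjusted p = 0.155), and by 0.06 without Prepl WT 1. Nr4a1 differed by 0.43 ± 0.31 (adjusted p = 0.334) and Dusp1 by 0.32 ± 0.19 (adjusted p = 0.234), with overlapping groups. Fos, Junb, Arc and Ier2 differed by -0.07, -0.33, -0.20 and 0.15, each with an adjusted p of 0.504 or more. The median over the 8 genes was -0.14, beside 0.00 over all genes. Each group of wild types here also served as the control of its mutant, so these values share libraries with those above. What else separated the wild-type groups (colony, dissection, date of preparation) is not in the labels, and the groups and such causes cannot be told apart; the summed blood markers, for example, were 1798 to 3972 CPM in PWS-IC WT and 661 to 1147 CPM in Prepl WT, and choroid plexus markers 1360 to 2150 CPM and 879 to 1408 CPM.

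Summed over the 9 genes, the level was 66.4 ± 26.8 CPM in Prepl WT, 73.2 ± 4.59 in the Prepl knockouts, 60.2 ± 6.11 in PWS-IC WT and 62.4 ± 6.36 in the deleted libraries (SD, n = 4). With Egr1 left out, the sums were 43.4, 44.3, 45.8 and 47.7 CPM, within a tighter band than their SDs of 4.69 to 9.63 CPM. The spread between replicates can be set against counting error by a chi-square per degree of freedom, which is 1 when libraries differ by counting alone. For Egr1 it was 68.9 in Prepl WT and 1.08 to 2.54 in the other groups. The median gene with at least 1 CPM had 1.75 to 2.28. Nr4a1 reached 10.4 and Dusp1 7.32 in PWS-IC WT, and Dusp1 5.89 and Junb 5.33 in Prepl WT. In contrast, Npas4 in Prepl WT, at 0.0587, and Fos in the knockouts, at 0.133, varied less than counting error gives on average.

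**Figure D4:**
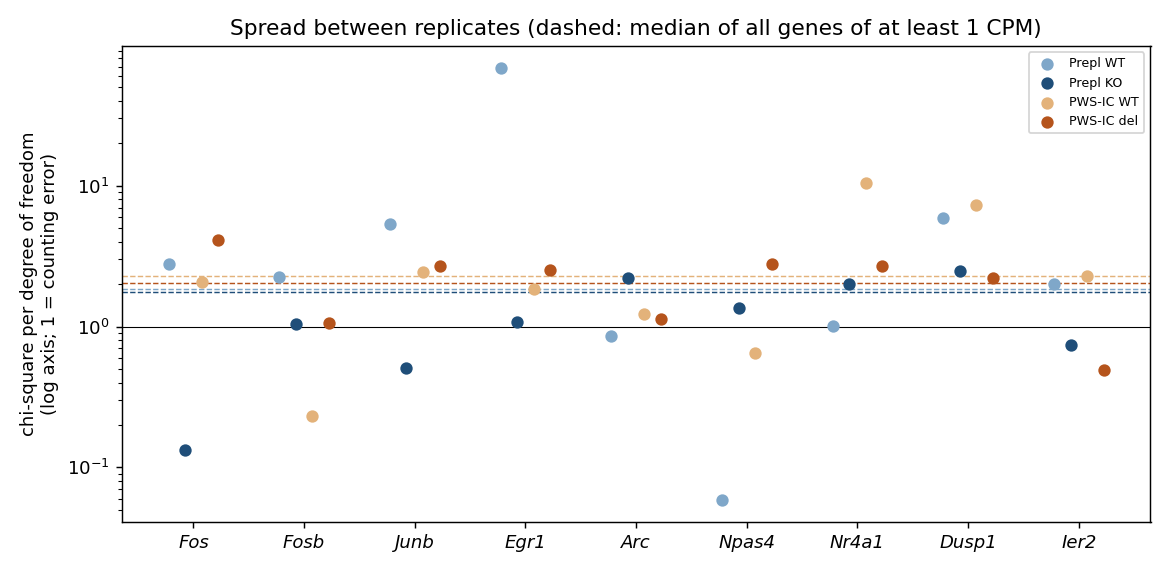
Spread between the 4 replicates of each group for each immediate early gene, as the chi-square per degree of freedom of the counts (log axis; 1 is counting error alone), with the median of all genes of at least 1 CPM as a dashed line per group. Egr1 in Prepl WT stands at 68.9, and the next, Nr4a1 in PWS-IC WT, at 10.4.

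Beyond the 9 genes, 44 other rapid activity-regulated genes were listed, of which 36 had enough reads in the Prepl comparison and 37 in the PWS-IC comparison. None was called in either, their medians were 0.03 and -0.02, and 6 of 36 and 4 of 37 had an unadjusted p under 0.05 (edgeR), where 9.43% and 18.2% of all genes did. In the Prepl comparison the smallest p were those of Midn, a nuclear protein that passes early transcription factors to the proteasome, at 473 ± 26.8 and 552 ± 41.2 CPM (log2 fold change 0.26 ± 0.07, adjusted p = 0.149), and of Plk2, a kinase of active synapses, at 86.5 ± 0.41 and 68.3 ± 6.09 CPM (-0.30 ± 0.08, adjusted p = 0.159). In both the groups did not overlap, as in 5.69% of all genes. DESeq2 called Midn and no other gene of the list, and limma voom called none. Without Prepl WT 1, Per1, a clock gene that CREB also activates, was called: it rose from 15.4 ± 0.32 (n = 3) to 22.4 ± 2.17 CPM (0.58 ± 0.14, edgeR adjusted p = 0.0463). With all 4 wild types Per1 gave 0.31 ± 0.17 with overlapping groups (adjusted p = 0.591), and it was not called without Prepl WT 1 when the other 15 libraries were fitted with a sex term.

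In the PWS-IC comparison the smallest p of the same list was that of Ier3, an early gene of stress and growth signals. Ier3 measured 10.3 ± 3.68 CPM in the PWS-IC wild types and 5.70 ± 0.25 CPM in the deleted libraries, without overlap, as in 11.8% of all genes (log2 fold change -0.85 ± 0.25, edgeR adjusted p = 0.0549). DESeq2 called it, as did 7 others of 20 alternatives, and limma voom did not. Nr4a3, a relative of Nr4a1, measured 30.1 ± 4.62 and 22.3 ± 4.43 CPM (-0.43 ± 0.15, adjusted p = 0.125).

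Among 20 delayed effectors, the secreted and synaptic products that follow, 18 were tested in each comparison. None was called in the Prepl knockouts, by edgeR, DESeq2 or limma voom, with 1 at an unadjusted p under 0.05 and a median of -0.08. Inhba, which encodes a subunit of activin, had the smallest p, at 12.2 ± 2.30 and 7.81 ± 1.95 CPM (-0.61 ± 0.20, edgeR adjusted p = 0.289), followed by Igf1, at -0.19 ± 0.11 (adjusted p = 0.595). In the PWS-IC deleted libraries 1 of 18 was called, a share near the 4.51% of all genes: Scg2, a granin of neuropeptide granules, rose from 236 ± 15.6 to 294 ± 12.9 CPM without overlap, as in 11.8% of all genes (0.32 ± 0.08, edgeR adjusted p = 0.0263). That call was lost when any of 5 single libraries was left out, with log2 fold changes of 0.29 to 0.36 over the 8 such fits: PWS-IC WT 1 or 3, or deleted 2, 3 or 4. Other measures moved with these groups: the summed blood markers were 1798 to 3972 CPM in PWS-IC WT and 1205 to 1630 CPM in the deleted libraries, the choroid plexus markers 1360 to 2150 and 378 to 1685 CPM, and reads outside genes 11.4% to 13.7% and 17.7% to 20.1%. Their part in the PWS-IC results was not tested.

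Of the 35 upstream genes, the receptors, kinases and transcription factors that act on the immediate early genes, 0 of 35 were called in the Prepl knockouts and 0 of 34 in the deleted libraries, with 4 and 5 at an unadjusted p under 0.05 (edgeR), where 9.43% and 18.2% of all genes were. DESeq2 called 0 and 1, the latter being Crebbp, a coactivator of CREB, and limma voom called 0 and 0. The smallest p in the Prepl comparison were those of Mef2c, at 822 ± 92.3 and 660 ± 63.6 CPM (-0.28 ± 0.08, edgeR adjusted p = 0.202), and Camk2b, a calmodulin-dependent kinase, at 288 ± 29.5 and 243 ± 9.88 CPM (-0.21 ± 0.07, adjusted p = 0.325). In the PWS-IC comparison they were those of Camk2a, at 87.7 ± 10.7 and 67.6 ± 11.8 CPM (-0.37 ± 0.11, adjusted p = 0.0754), and Crebbp, at 220 ± 8.76 and 264 ± 30.1 CPM (0.27 ± 0.09, adjusted p = 0.0798).

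In the contrast of the mutant effects edgeR called none of 39 rapid genes, 18 delayed effectors and 35 upstream genes, with 7, 3 and 4 at an unadjusted p under 0.05, where 11.7% of all genes were. DESeq2 and limma voom each called 1, the transcription factor gene Mef2c.

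Between the wild-type groups the share of all genes called was 11.7% higher and 12.1% lower in PWS-IC WT. Of the upstream genes 17 of 34 were called, 13 lower and 4 higher in that group than in Prepl WT, with a median of -0.27. Their log2 fold changes ran from -0.88 to 0.95, and the count called ranged from 12 to 17 when 1 library was left out. The 6 with the smallest p, all of them lower, follow. The NMDA receptor subunit Grin2b measured 240 ± 59.2 CPM in PWS-IC WT and 453 ± 61.7 CPM in Prepl WT (-0.88 ± 0.13, edgeR adjusted p = 5.07e-05), and the kinase Camk4, which phosphorylates CREB, measured 81.0 ± 6.10 and 138 ± 21.1 CPM (-0.72 ± 0.10, adjusted p = 2.39e-05). The log2 fold change was -0.56 for Camk2a, -0.52 for Camkk2, which activates Camk4, and -0.38 and -0.36 for the coactivators Ep300 and Crebbp. All 6 were without overlap, as were 24.7% of all genes, and their calls held in each of 20 alternatives. The summed forebrain markers were also lower without overlap, at 1270 to 1587 CPM in PWS-IC WT and 1602 to 1914 CPM in Prepl WT. Of the 10 forebrain genes tested, 6 were lower and 4 higher in PWS-IC WT, with 1 called and a median of -0.10. Reads outside genes were 11.4% to 13.7% and at least 15.98%. The part of either in these differences was not tested.

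Of the other rapid genes 9 of 35 were called between the wild-type groups, 8 higher and 1 lower in PWS-IC WT. This share was near the 23.8% of all genes called. The zinc finger genes Klf4 and Klf2 were higher by 0.71 and 0.69, and Klf10 lower at -0.62 ± 0.18 (edgeR adjusted p = 0.0167). Plk3, Ier5 and Tiparp were higher by 0.59, 0.42 and 0.35. This count fell to 5, 4 of them higher, when libraries were scaled by their reads in genes alone, and to between 2 and 7 when 1 library was left out, at 2 without Prepl WT 2 or 3, 3 without PWS-IC WT 3, 4 without PWS-IC WT 1 and 5 without Prepl WT 1. By gene, the call of Tiparp was lost in 10 of 20 alternatives, 6 of them fits that left out 1 library. The calls of Klf4 and Plk3 were lost in 4 each, that of Klf2 in 3, and those of Ier5 and Klf10 in 2 each. Among all called genes 49.1% were higher in PWS-IC WT, and 38.9% with libraries scaled by reads in genes alone. Of the delayed effectors 5 of 18 were called, a share also near the 23.8% of all genes. Mmp9 and Sstr2 were higher, by 0.86 and 0.59, and Inhba, Pim1 and Igf1 lower, with log2 fold changes of -0.94, -0.46 and -0.42. The call of Pim1 was lost in 7 of 20 alternatives, 5 of them fits that left out 1 library (Prepl WT 1, 2 or 3, or PWS-IC WT 1 or 4), and those of the other 4 in none. The count ranged from 4 to 8 when 1 library was left out, at 8 without Prepl WT 4 or PWS-IC WT 2, and was 8 with no filter on low counts.

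The genes whose level most resembled that of the immediate early genes were ranked by Pearson correlation with the mean of the 9, each centred on its own mean, over 16 libraries and 11380 genes of at least 5 CPM. Fchsd1 (r = 0.832), Eif2d (0.811), Cpeb2 (0.805), Stx16 (0.778), Gigyf1 (0.763) and Apold1 (0.748) led, and all but Cpeb2 were highest in Prepl WT 1. Fchsd1 measured 6.33 to 17.0 CPM and Apold1, an endothelial early response gene, 4.31 to 13.5 CPM. With group means also removed, the order was Tox4 (0.888), Fchsd1 (0.864), Hs3st1 (0.860), Cpeb2 (0.847), Kcnt1 (0.843) and Vegfa (0.804). Fchsd1 and Cpeb2 were in both. Without that removal, r over the 16 libraries was 0.397 for Tox4, -0.038 for Hs3st1, 0.647 for Kcnt1 and 0.690 for Vegfa. The mean of the 9 gives the thinly covered Fosb, Arc and Npas4 the same weight as Egr1. The 9 genes and the genes ranked share libraries and their depth, and the correlations describe these 16 libraries.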

How the data were processed

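RNA was measured in 16 brain libraries, grouped by their titles. What the authors deposited were counts, whole numbers of reads for each gene symbol, made with HISAT2, HTSeq and mm10 per the submitters' processing notes; for versions, annotation and strand setting, the sources used here give nothing. The 5 table totals that name no gene, among them reads outside genes (11.4% to 20.1% of tabled reads), stayed out of library sizes and tests. CPM was computed here from the deposited counts.

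Differences were tested with edgeR 4.0.16 (R 4.3.3): filterByExpr (minimum count 10, minimum total count 15), TMM, quasi-likelihood fit and F-test, Benjamini-Hochberg adjustment over all genes, threshold 0.05, on the 8 libraries of each comparison. SE is the log2 fold change over the root of F. Ratios of summed reads have exact Clopper-Pearson intervals (95%). Scripts were tested on simulated data. Alternatives were RLE, upper-quartile or no factors, no filter, DESeq2 1.42.0, limma 3.58.1 voom, replicate block, sex term, all 16 libraries in 1 fit, and leaving out each library; robust edgeR, sample weights, and a sex term without Prepl WT 1 were added after seeing the data. Named genes were the 9 members, the called members of each list (up to 6, else the 2 smallest p) and the 6 closest genes by each of the 2 correlations; Egr2 to Egr4, Per1 and the fits singled out without Prepl WT 1 were chosen after their values were seen. The members and lists were chosen with earlier results of these data known.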

Additional observations from a re-analysis of the deposited data

Results flagged for a closer look

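In groups of 4, a library was marked when its gap to the nearest other, divided by the range of the group, was above Dixon's 95% critical value. Of 36 gene and group pairs, 4 were marked, where chance marks about 1 in 20. Egr1 was marked in Prepl WT, where replicate 1 measured 49.5 CPM and the next 17.2 CPM, and in PWS-IC WT, where replicate 3 measured 17.65 CPM and the other 3 lay at 12.9 to 13.7 CPM. Fos was marked in Prepl WT, where replicate 1 measured 6.851 CPM and the other 3 lay at 3.62 to 3.79 CPM. Fosb was marked in PWS-IC WT, where replicate 2 measured 0.3786 CPM and the other 3 lay at 0.17 to 0.19 CPM; these are 1 or 2 reads per library.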

How the results depend on the processing

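Over 676 values of a member under an alternative, 6 gained a call and 40 changed sign. No member was called in a main fit, so no call could be lost. A member was called (1 gene each) in these cases: Egr1 in the Prepl knockouts with limma voom sample weights, without Prepl WT 1, and without Prepl WT 1 with a sex term over the other libraries; Egr1 between the wild types with no filter on low counts (-0.60); Dusp1 between the wild types with sample weights; and Egr1 in the contrast of the mutants without Prepl WT 1. The causes were not tested, beyond the library left out. Counts ranged from 0 to 1 for the Prepl knockouts and the contrast when each library was left out. The members' median moved to -0.20 in the Prepl knockouts with all 16 libraries and a sex term, and between the wild types ranged from -0.23 to 0.13 when each library was left out, the highest without Prepl WT 1.

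Signs changed as follows. In the Prepl knockouts, a sex term gave 0.02347 for Ier2 and 0.01984 for Igf1, all 16 libraries with a sex term gave -0.25 for Fos, and leaving Prepl WT 1 out of that fit gave -0.01698. In the PWS-IC deleted libraries, no filter gave -0.01025 for Ier2 and voom -0.01065 for Fos. In the contrast, voom gave -0.004207 and sample weights -0.25 for Junb, and a sex term gave 0.31 for Fos, -0.17 for Arc and 0.34 for Npas4. Leaving out each library gave, in the Prepl knockouts, -0.30 to 0.10 for Npas4; in the PWS-IC deleted libraries, -0.17 to 0.28 for Fos, -0.48 to 0.05176 for Junb, -0.06919 to 0.15 for Egr1, -0.19 to 0.42 for Nr4a1 and -0.13 to 0.14 for Ier2; between the wild types, -0.28 to 0.20 for Fos, -0.81 to 0.06146 for Egr1 and -0.33 to 0.009297 for Arc; and in the contrast, -0.39 to 0.08396 for Fos, -0.17 to 0.37 for Junb, -0.54 to 0.19 for Npas4, -0.47 to 0.15 for Nr4a1 and -0.23 to 0.06075 for Dusp1.

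The labels give no pairing by replicate number. Deviations of same-numbered libraries correlated at -0.05 to 0.05 in the Prepl comparison. In the PWS-IC comparison they correlated at -0.03, 0.16, 0.16 and 0.13 for numbers 1 to 4, so not every pair passed 0.1, and 1 of 4 PWS-IC WT libraries correlated best with its own number; sex follows the number in both groups there. With the replicate block, 35 genes were called in the Prepl knockouts in place of 36 and 996 in the deleted libraries in place of 615; no member was called, and Egr1 in the Prepl knockouts was 0.54. Calls over all genes in the Prepl knockouts were 18 with all 16 libraries, 6 with a sex term and 156 with no filter, and ranged from 12 to 103 when each library was left out. Among called genes there, 72.2% were higher, and 58.8% with reads in genes alone. The upstream list held 1 to 5 calls in the deleted libraries under no filter, DESeq2, the block, a sex term or all 16 libraries. Depth limits Fosb, Arc and Npas4, whose libraries held at most 17 reads each.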
